A study of Mus musculus with 21 samples.

Results

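Along the mouse presomitic mesoderm (PSM), cut into 7 pieces, 27 of 18193 genes had lower mean expression in the middle than at either end. The genes were chosen from the measured values. A gene was taken if its mean over the 9 arrays of parts 3 to 5 lay at least 0.5 log2 units below both its mean over the 6 arrays of parts 1 and 2 and its mean over the 6 arrays of parts 6 and 7. Values are log2(MAS5 signal + 16) of the gene's probe set with the highest mean, called log2 signal here, so that a signal of 0 reads as 4. MAS5 is the Affymetrix method that turns the probes of a probe set into 1 signal. Of 29 genes that met these limits, Cdh11 and Slc1a3 were left out by name. Turned round, the same limits gave 44 genes highest in parts 3 to 5. The tissue came from CD-1 embryos, an outbred mouse stock, labelled E8.5 by stage and 9.0 days post-coitus in the dissection protocol. After 1 min in pancreatin (2 mg/ml) the surrounding ectoderm, endoderm and lateral plate were removed with needles, and the PSM was cut into 7 numbered parts. Each part has 3 arrays, 21 in all, of RNA that was amplified in 2 rounds. The labels name no allele or treatment that differs between parts. Which end of the tissue carries the low part numbers is not stated in the labels. They say that left and right PSM of 1 embryo were taken and another set from another embryo, without tying replicate numbers to embryos. Some arrays thus share an embryo, and p-values measure the spread between these arrays, not between embryos.

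The PSM is the strip of unsegmented mesoderm that flanks the neural tube behind the last somite. Its cells leave the tailbud as proliferating, migratory mesenchyme under FGF and Wnt signals, pass through a stage of oscillating Notch and Wnt target genes, and become epithelial somites at the other end. Proliferation, adhesion and the cytoskeleton are regulated along this path, as are the ligands and receptors through which the cells signal to each other.

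The arrays carried the tissue's markers. Tbx6, a T-box gene of the PSM, had a mean log2 signal of 9.36 in parts 1 and 2, 8.76 in parts 3 to 5 and 5.83 in parts 6 and 7. Meox1, a somite gene, went the other way, with 5.55, 10.16 and 11.49. Markers of other tissues were not all absent, and some had a high signal in single arrays. In parts 1 and 2 the summed signal of blood and erythroid genes was 11530 to 23820, against 10290 to 14310 for PSM genes. Foxa2 (node and endoderm) stayed between 4.06 and 5.24, near the value of no signal. Sox2 (neural tube) reached 6.43, the endothelial genes Cdh5 and Kdr 6.02 and 8.36, the erythroid gene Gata1 7.57 and the endoderm gene Afp 11.08 in their highest arrays. Mean MAS5 signal per array was 151 to 154. Replicate 2 of part 7 stood apart from the other arrays of its part. In part 7 the segment boundary gene Ripply2 had log2 signals of 4.88, 9.87 and 4.52 in replicates 1, 2 and 3, and Nrarp, a Notch target, 8.20, 11.02 and 8.21. That array resembled part 6 in these genes, where Nrarp was 10.85 to 11.02, and the counts of part 7 against part 6 are given with and without it. The arrays with replicate number 3 also stood apart as a set: 4035 of 12141 genes differed between replicate numbers, and 4 did without number 3. The PSM pieces are mixtures, in which fewer cells of a type and less RNA per cell cannot be told apart.

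Promoter sequences were available for 19 of the 27 genes, as 21 windows of the 250 bases before the RefSeq transcription start (build GRCm38.p6). Those of Mfsd2a, Nup210 and Bex4 are shown: Mfsd2a has the largest dip among genes with a sequence here, and Nup210 and Bex4 are the members that differed between parts 1 and 2. Each reads 5′ to 3′ on the gene's strand. Capitals mark the CCAAT box (CCAAT on the strand shown, or ATTGG where the box lies on the other strand). They also mark the GC box (GGGCGG on the strand shown, or CCGCCC where the box lies on the other strand).
Mfsd2a, chr4:122961189-122961438, minus strand: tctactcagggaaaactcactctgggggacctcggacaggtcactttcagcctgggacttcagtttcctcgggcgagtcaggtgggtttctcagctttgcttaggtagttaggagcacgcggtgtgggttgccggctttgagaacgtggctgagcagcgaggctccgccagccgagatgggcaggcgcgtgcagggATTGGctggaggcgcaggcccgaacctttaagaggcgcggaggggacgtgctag
Nup210, chr6:91116827-91117076, minus strand: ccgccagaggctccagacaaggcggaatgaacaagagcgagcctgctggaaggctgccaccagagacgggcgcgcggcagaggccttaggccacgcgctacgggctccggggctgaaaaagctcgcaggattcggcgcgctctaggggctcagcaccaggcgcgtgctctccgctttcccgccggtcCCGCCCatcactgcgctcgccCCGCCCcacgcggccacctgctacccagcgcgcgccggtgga
Bex4, chrX:136138746-136138995, plus strand: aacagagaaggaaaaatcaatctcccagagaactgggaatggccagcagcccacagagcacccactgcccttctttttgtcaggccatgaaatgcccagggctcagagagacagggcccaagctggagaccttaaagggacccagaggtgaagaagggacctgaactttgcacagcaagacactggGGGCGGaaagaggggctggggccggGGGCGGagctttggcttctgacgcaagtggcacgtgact
The window of Mfsd2a holds 1 CCAAT box, read from the other strand, and no GC box. Those of Nup210 and Bex4 hold 2 GC boxes each and no CCAAT box. Counted on both strands, GGGCGG occurred in 11 of the 21 windows (52.4%) and in 32.7% of all 32851 windows in the table. CCAAT occurred in 10 (47.6%, against 33.8%) and TATAAA in 1, that of Nav1 (4.8%, against 12.4%). Of motifs tied to pathways of the PSM, the TCF/LEF core CTTTGA was in 2 windows, those of Mfsd2a and Shb (9.5%, against 13.8%). The RBPJ core TGGGAA was in 7 (33.3%, against 21.6%). The E-box CACGTG, which Myc proteins bind, was in 2, those of Bex4 and Wnt9a (9.5%, against 6.0%). TCACNCCAC, a sterol response element core bound by SREBP, was in none (all windows 1.1%). No motif searched here contains another. These matches are letters in a window, not measured binding.

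The middle parts lay below the ends by a factor of 1.42 to 3.81 on the log2(signal + 16) scale, which understates the change of genes with low signal. The median over the members of the smaller of the 2 differences, called the smaller dip, was 0.59 log2 units; over all 12141 genes that passed a filter on low signal it was -0.08. All 27 members passed that filter. Scd1 had the largest smaller dip (0.93), followed by Mfsd2a (0.87), Pax9 (0.86), Dst (0.83), Ccnd1 (0.79), Cxxc5 (0.76), Klf9 (0.76), Lpin1 (0.71) and Jag1 (0.70). Just inside the limit were Shb (0.515), Shisa2 (0.512) and Siah2 (0.510), and just outside it Angpt1 (0.499), Irs2 (0.493) and Pcbd1 (0.476). The lowest part mean was in part 4 for 13 members, part 5 for 8 and part 3 for 5. The exception was Bex4, lowest in part 2. The highest mean was in part 1 for 14 members and part 7 for 10, in part 6 for Klf9 and Jag1, and in part 2 for Pax9. Both ends were within 0.2 log2 units of each other in 17 members, and 18 had the higher mean in parts 6 and 7.

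**Figure D1:**
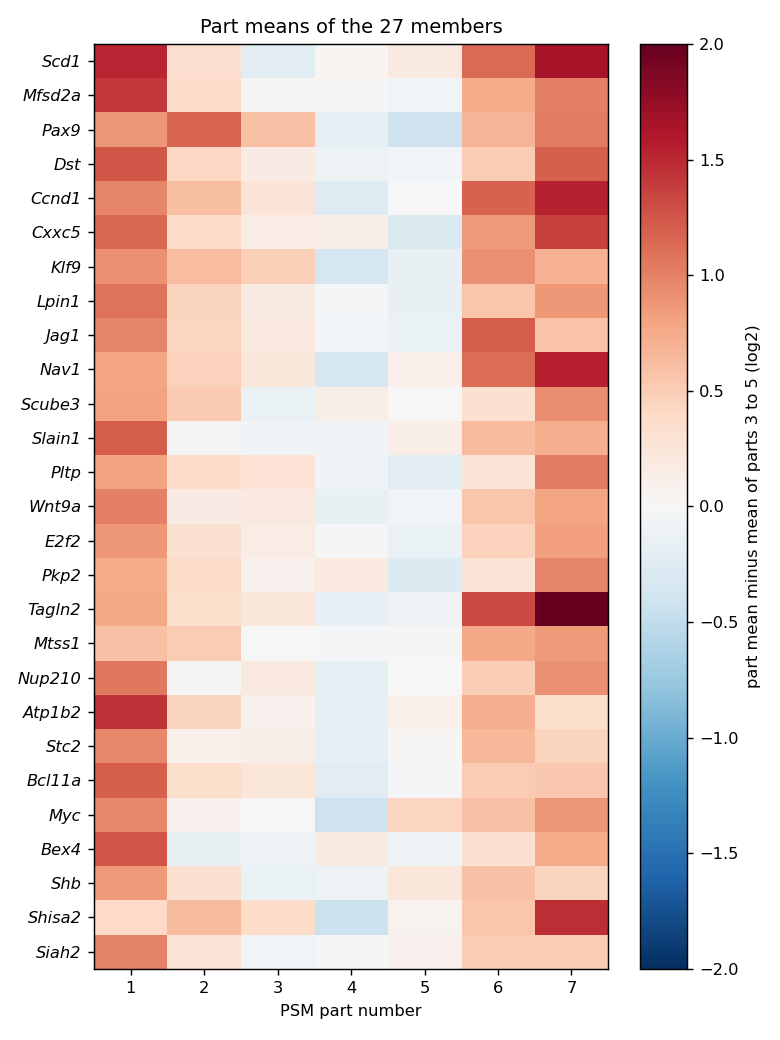
Heat map of the mean log2 signal of each of the 27 members (rows, ordered by smaller dip) in each part (columns), as the difference from the member's mean over parts 3 to 5; red is higher and blue lower. Differences run from -0.43 to 2.55, and the colour scale ends at 2. Parts 1 and 7 hold the strongest red for most members, and Tagln2 in part 7 is the highest cell.

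Because these differences chose the genes, they are a description and no test is drawn from them. The log2 ratios of 3′ to 5′ signal, which are higher in shorter RNA, differed between the regions too. For GAPDH the medians were 3.16 in parts 1 and 2, 3.81 in parts 3 to 5 and 3.56 in parts 6 and 7, with overlapping ranges of 2.21 to 3.80, 2.80 to 4.11 and 3.37 to 3.90. For actin they were 3.37, 3.72 and 3.69. Their part in the dip was not tested. In limma's contrast of parts 3 to 5 against the 4 outer parts, 22 of the 27 were lower (background over all genes tested 1.58%), as the rule brings about. The separation was not complete in single arrays. In 0 of 27 members were all 9 middle arrays below all 12 outer ones (background 0.00824%). All 9 were below the 6 arrays of parts 1 and 2 in Dst and Scube3 (background 0.774%). They were below the 6 arrays of parts 6 and 7 in 7 members, Scd1, Ccnd1, Cxxc5, Lpin1, Nav1, Tagln2 and Mtss1 (background 1.28%), and without replicate 2 of part 7 in the same 7 (all genes 1.42%). The rule took means over all replicate numbers, so a dip within each number is largely brought about by the rule. Within each replicate number the smaller dip was above 0 in 24 members in all 3 numbers. The exceptions were Pax9 in number 2 (-0.12), Stc2 in number 1 (-0.01) and Shisa2 in number 3 (-0.11). It was at least 0.5 in all 3 numbers in Mfsd2a and Ccnd1 alone.

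**Figure D2:**
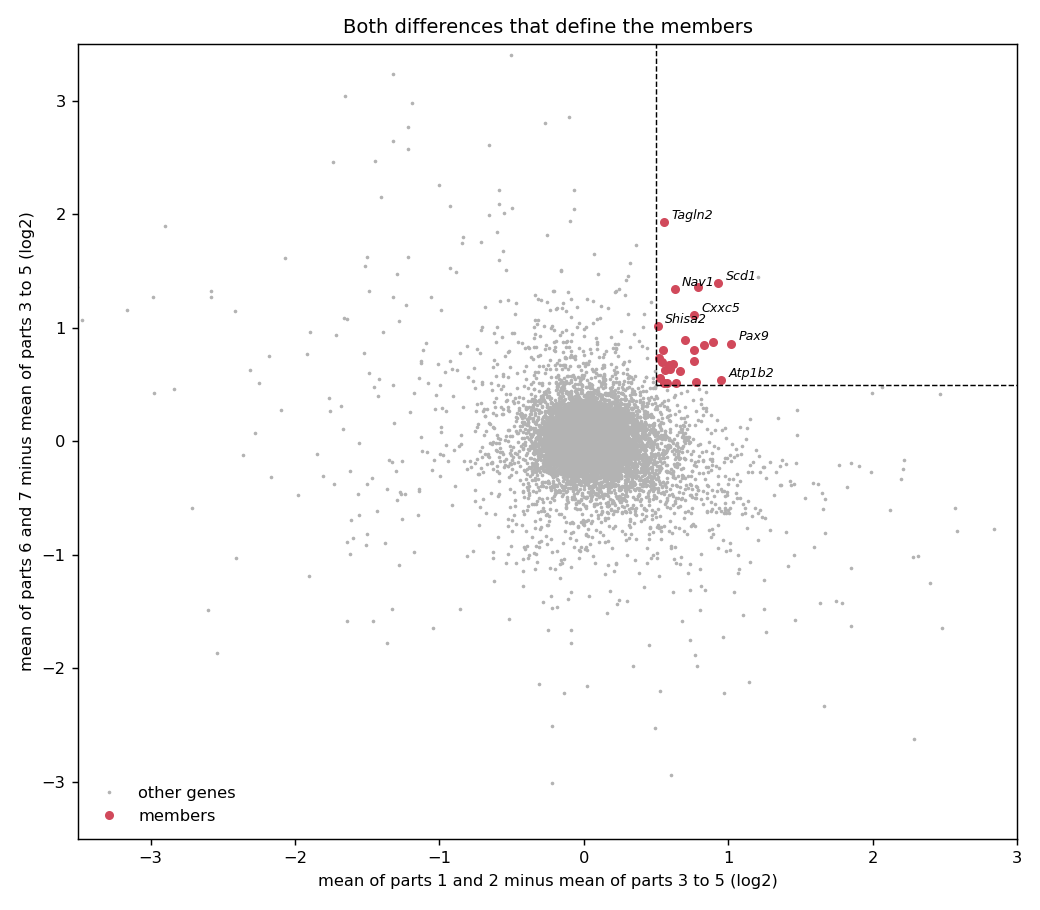
Each point is 1 gene: the x axis is the mean log2 signal of parts 1 and 2 minus that of parts 3 to 5, the y axis the same for parts 6 and 7. The 27 members (red) lie above 0.5 on both axes (dashed lines), with Tagln2 highest at 1.93 on the y axis; 2 grey points in that corner are the genes left out by name, and 7 genes lie outside the axes.

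Scd1 and Mfsd2a, at the top of the list, and Lpin1 and Pltp act on lipids. Scd1 encodes stearoyl-CoA desaturase, which makes monounsaturated fatty acids. Its log2 signals were 8.31, 8.96 and 8.17 in part 1 and 6.91, 7.88 and 7.10 in part 2 (replicates 1, 2 and 3). They were 6.69, 6.65 and 6.88 in part 3, 6.86, 6.99 and 7.12 in part 4 and 7.07, 6.90 and 7.46 in part 5. They reached 7.60, 7.82 and 8.86 in part 6 and 9.02, 7.66 and 9.13 in part 7. Part 2 overlapped the middle parts, and parts 6 and 7 did not. The means of the 3 regions were 7.89, 6.96 and 8.35, that is 1.91-fold higher in parts 1 and 2 and 2.62-fold higher in parts 6 and 7 than in the middle. Mfsd2a encodes a transporter of lysophosphatidylcholine that brings omega-3 fatty acids into cells. It had 6.80, 7.78 and 7.59 in part 1, and its middle arrays ran from 5.58 to 6.32. The arrays of parts 6 and 7 ran from 6.30 to 7.49, so that 1 of 9 middle arrays overlapped them. Replicate 3 was the lowest array of Mfsd2a in parts 2 to 7, where its middle values were 5.74, 5.68 and 5.58. Lpin1, a phosphatidate phosphatase, had region means of 5.62, 4.86 and 5.56, and Pltp, the phospholipid transfer protein, 7.06, 6.47 and 7.10. All middle arrays of Lpin1 lay below all arrays of parts 6 and 7. In Pltp 4 of 9 did, and its part 3 held one high array, replicate 2 at 7.31.

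Of a list of 32 lipid and sterol metabolism genes 26 were tested, among them the members Scd1 and Pltp. Limma's contrast of the middle against the outer parts called 6 of the other 24 lower in parts 3 to 5 and 0 higher. The limit was an adjusted p under 0.05, and the background was 1.58% lower and 1.32% higher. This contrast sets apart the same parts as the rule for members. The list was chosen with earlier results of these data known, so the calls are a description. Lss, lanosterol synthase, differed by -0.63 ± 0.09 (SE, adjusted p = 0.000544), with region means of 8.07, 7.69 and 8.57. Dhcr7, a late enzyme of cholesterol synthesis, differed by -0.77 ± 0.14 (SE, adjusted p = 0.00244), with means of 7.37, 7.15 and 8.48. Fdps (-0.47 ± 0.12) and Fdft1 (-0.34 ± 0.09), which make farnesyl diphosphate and squalene, and Scd2 (-0.23 ± 0.05), a second desaturase, were also called. The middle was below both ends in Lss, Dhcr7, Fdps and Scd2. In Fdft1 it was level with parts 1 and 2 (9.49 and 9.43), and the fatty acid receptor gene Cd36 went from 4.11 to 5.04 to 7.11 with no dip. In 10 of the 24 the middle mean was below both ends; over all genes tested this was so in 3377 of 12141. The summed signal of the list was 18990 to 23820 in parts 1 and 2, 18840 to 24080 in parts 3 to 5 and 23310 to 28730 in parts 6 and 7. The sums of the middle parts overlapped those of both ends. Their medians were 20700, 20760 and 25230, so that the middle was level with parts 1 and 2 and below parts 6 and 7.

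Some other members regulate the cell cycle or transcription, though no list of cell cycle genes was counted. Ccnd1, cyclin D1, promotes entry into S phase. Its log2 signals were 8.74, 9.63 and 9.36 in part 1 and 9.06, 9.09 and 8.49 in part 2. They were 7.84, 7.87 and 8.32 in part 4, and 10.09, 9.34 and 10.00 in part 7. All 9 middle arrays (7.84 to 8.67) were below the arrays of parts 6 and 7 (9.23 to 10.09) and 6 of 9 were below those of parts 1 and 2. The region means gave folds of 1.73 and 2.56 over the middle. The other D cyclins did not meet the limits. Their means in parts 1 and 2 and in parts 6 and 7 differed from the middle by 0.01 and -0.59 in Ccnd2 and by 0.36 and 0.01 in Ccnd3. Myc, a transcription factor of growth and proliferation, had means of 6.64, 6.12 and 6.85. Within the middle its part means were 6.10, 5.70 and 6.55 ± 0.15 (SD, n = 3), the last nearly level with part 6 (6.70 ± 0.39, SD, n = 3). E2f2, which activates genes of DNA replication, had means of 5.73, 5.15 and 5.79.

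Cxxc5 encodes a zinc finger protein that restrains Wnt signalling by binding Dishevelled. It had 7.996, 9.49 and 9.37 in part 1, 7.51, 7.56 and 7.50 in part 5, and 9.46, 8.65 and 9.40 in part 7. Replicate 1 of part 1 was as low as the middle arrays, which ran from 7.50 to 8.15. Klf9, a Krüppel-like factor induced by nuclear hormone receptors, had region means of 7.04, 6.28 and 7.09; its part 3 array of replicate 3 (7.45) was as high as the ends. Pax9, a paired-box factor of the sclerotome, had means of 5.62, 4.60 and 5.46. It was spread widely in part 3, with 5.21, 6.27 and 4.08, whereas parts 4 and 5 lay between 4.09 and 4.76. Bcl11a, a zinc finger repressor, had means of 5.26, 4.49 and 5.02, and its highest single array was replicate 2 of part 1 (6.50).

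Signalling genes included Jag1, a membrane ligand of Notch receptors. It had 8.38, 9.25 and 8.43 in part 1 and 9.01, 9.13 and 8.65 in part 6. In part 5 it had 8.31, 6.94 and 7.49, and in part 7 8.12, 9.06 and 7.69. Unlike most members Jag1 was highest in part 6, and in part 7 replicate 2, the array that stood apart, was the only one as high. Wnt9a, a Wnt ligand, had region means of 4.92, 4.33 and 5.00; part 4 was near no signal, at 4.19 ± 0.05 (SD, n = 3). Shisa2 encodes a protein that holds FGF and Wnt receptors in the endoplasmic reticulum. It had 5.81, 6.83 and 6.30 in part 4 and 8.51, 7.48 and 8.66 in part 7, with region means of 7.25, 6.74 and 7.75. Its part 3 (7.10 ± 0.18, SD, n = 3) was level with part 1 (7.14 ± 0.38, SD, n = 3), so that the lower values lay in parts 4 and 5.

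Scube3, a secreted EGF-domain protein that enhances TGF beta and BMP signals, had region means of 5.01, 4.35 and 4.97. All its middle arrays (4.04 to 4.67) were below those of parts 1 and 2 (4.70 to 5.63), but replicate 1 of part 6 was at 4.19. Stc2, a secreted glycoprotein of the stress response, had means of 6.09, 5.56 and 6.11 and the widest spread of all members within parts. In part 3 it had 5.29, 4.74 and 7.04, the last above most outer arrays. Shb, an adaptor of tyrosine kinase receptors, had 6.02, 5.44 and 5.96, and Siah2, a ubiquitin ligase, 6.09, 5.45 and 5.96. In Siah2 6 of 9 middle arrays lay below all outer arrays.

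**Figure D3:**
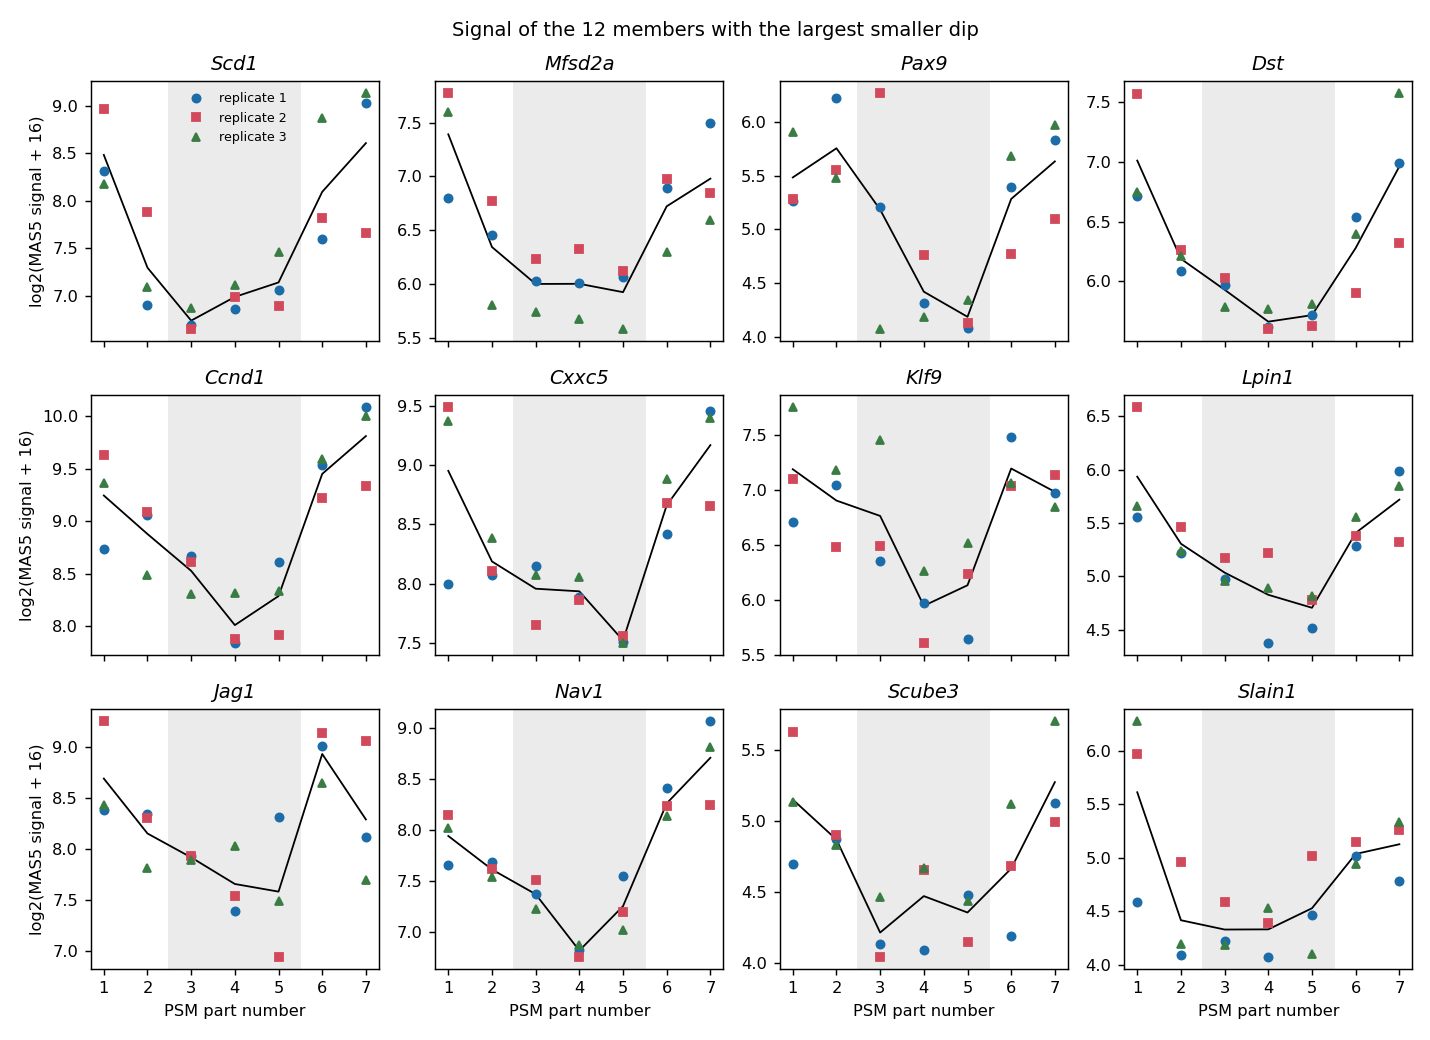
Log2(MAS5 signal + 16) of the 12 members with the largest smaller dip in each of the 21 arrays, against part number; symbols mark the replicate numbers, lines join part means, and grey bands mark parts 3 to 5. Scd1, Ccnd1, Cxxc5, Lpin1 and Nav1 have all middle arrays below those of parts 6 and 7. Pax9 and Klf9 each have 1 middle array above the means of both ends, and Slain1 has 1 level with the mean of parts 1 and 2.

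Several members build or bind the cytoskeleton and cell junctions. Tagln2, transgelin 2, an actin-binding protein, had the largest difference on one side: parts 6 and 7 were 3.81-fold above the middle. It had 8.43, 8.38 and 7.87 in part 6 and 9.49, 9.48 and 9.39 in part 7, against 6.33 to 7.34 in the middle. Parts 1 and 2 (6.84 to 8.48) overlapped the middle, and 1 array, replicate 2 of part 1 at 8.48, was well above the rest. Nav1, a neuron navigator that binds microtubule tips, had 6.83, 6.76 and 6.88 in part 4 and 9.07, 8.25 and 8.81 in part 7. Its region means were 7.78, 7.15 and 8.49, and 8 of 9 middle arrays were below parts 1 and 2. Dst, dystonin, a spectraplakin that links cytoskeletal filaments to each other and to junctions, had 6.71, 7.57 and 6.75 in part 1. It had 5.62, 5.60 and 5.77 in part 4 and 6.99, 6.32 and 7.58 in part 7. Its middle arrays (5.60 to 6.03) were below all of parts 1 and 2 (6.08 to 7.57), but replicate 2 of part 6 was at 5.90.

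Mtss1, which bends membranes at actin-rich protrusions, had region means of 8.71, 8.16 and 8.96. In it 8 of 9 middle arrays were below all others; the exception was replicate 3 of part 3 (8.60). Slain1, which promotes microtubule growth, had means of 5.01, 4.40 and 5.08, but its part 2 (4.42 ± 0.48, SD, n = 3) was as low as the middle. Pkp2, plakophilin 2, a desmosome component, had means of 6.35, 5.79 and 6.42, with replicate 3 the highest array in parts 1, 2, 3, 4 and 7. Among the remaining members, Nup210, a membrane protein of the nuclear pore, had means of 6.14, 5.60 and 6.30. Atp1b2, a beta subunit of the sodium pump, had 5.26, 4.31 and 4.85. Bex4, an X-linked gene of the brain-expressed family, had 7.61, 7.06 and 7.57. In both, 0 of 9 middle arrays lay below all arrays of parts 1 and 2. Below all of parts 6 and 7 lay 3 of 9 in Atp1b2 and 7 of 9 in Bex4. Pax9, Scube3, Slain1, Wnt9a, Atp1b2 and Bcl11a had middle means between 4.31 and 4.60, near the value of no signal.

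The difference between parts 1 and 2 was not used to choose the genes, which took only the mean of both. Part 2 was lower than part 1 in 2 of the 27 members (limma, which tests each gene in a linear model with its variance steadied by all genes, adjusted p under 0.05; background 0.486%) and higher in 0 (background 0.313%). Bex4 had 7.87, 8.55 and 8.5 in part 1 and 6.94, 7.04 and 6.75 in part 2. These do not overlap, and part 2 was as low as parts 3 to 5 (6.76 to 7.41). The fall was -1.40 ± 0.17 (SE, limma adjusted p = 0.000728). Nup210 had 6.51, 6.79 and 6.69 in part 1 and 5.73, 5.53 and 5.61 in part 2, again without overlap. Here too part 2 lay within the range of parts 3 to 5 (5.28 to 6.18). Its fall was -1.04 ± 0.21 (SE, limma adjusted p = 0.0201), and the call was lost without any one replicate number. That of Bex4 was lost without replicate 2 (adjusted p = 0.0735).

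Another 9 members had differences of -0.82 or beyond that did not pass in this fit, which leaves out the replicate number. They were -1.20 ± 0.34 in Slain1 (adjusted p = 0.123), -1.18 ± 0.36 in Scd1 (0.145), -1.05 ± 0.30 in Mfsd2a (0.124), -1.003 ± 0.301 in Atp1b2 (0.145), -0.88 ± 0.31 in Myc (0.234), -0.86 ± 0.55 in Stc2 (0.575), -0.85 ± 0.33 in Bcl11a (0.279), -0.84 ± 0.25 in Wnt9a (0.134) and -0.82 ± 0.26 in Dst (0.160) (SE, limma). With the replicate number as a block, Slain1, Mfsd2a and Atp1b2 of these 9 passed, as given at the end. Without the block, at an unadjusted p under 0.05, 14 of 27 were lower in part 2 (background 5.96%) and 0 higher (background 5.52%). The mean of part 2 was below that of part 1 in 25 of 27, against 49.5% of all genes tested, and the exceptions were Pax9 (0.27) and Shisa2 (0.23). The median difference was -0.63, against 0.003 over all genes. All 3 arrays of part 2 lay below all 3 of part 1 in 12 members (background 7.31%). By replicate number 1, 2 and 3, part 2 was below part 1 in 16, 25 and 25 members, against 47%, 52.3% and 48.8% of all genes. The median differences of the members were -0.34, -0.92 and -0.57. Replicate 2 was the highest array of part 1 in most members, so the fall leans on that array. Pax9, Klf9, Slain1, Pkp2, Atp1b2, Stc2, Myc and Shisa2 were highest in another. The share over all genes was not counted. The members varied more between arrays in part 1 (median SD 0.46) than in part 2 (0.34), while over all genes the medians were 0.20 and 0.22. A choice by the mean of 2 parts is neutral between them only where both vary alike, so these counts are not free of the choice.

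**Figure D4:**
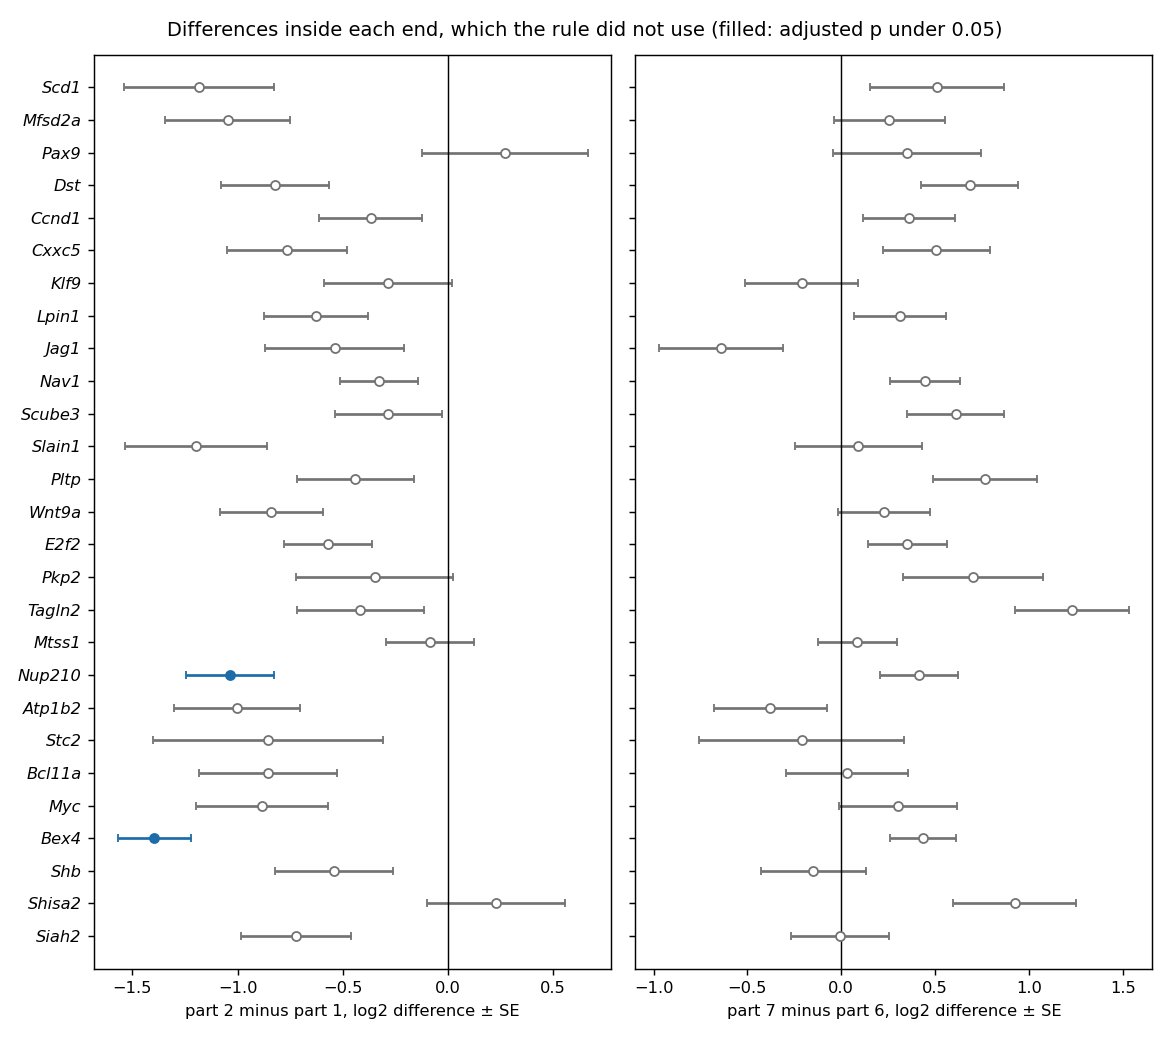
Differences inside each end for the 27 members, with bars of 1 SE from limma: part 2 minus part 1 on the left and part 7 minus part 6 on the right, in log2 units. Filled points passed an adjusted p under 0.05 (Nup210 and Bex4, left); 25 points lie below 0 on the left and 21 above 0 on the right, with all arrays.

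Other measures moved between parts 1 and 2 too. The summed signal of 26 neural tube genes was 3778 to 4340 in part 1 and 3038 to 3562 in part 2, without overlap; 14 were tested and 1, Crabp2, was called lower in part 2. Of its defining genes Sox2 had part means of 5.63 and 4.39, and Sox1 4.48 and 4.03, near no signal. The sum of 18 surface ectoderm genes was 205 to 225 in part 1 and 152 to 158 in part 2, with Trp63 and Krt14 near no signal in both and 0 of 9 called. That of 22 gut endoderm genes was 381 to 929 and 199 to 538, with 1 of 14, Apela, called lower. Lists of the mesoderm itself moved too. The sum of the somite genes was 728 to 785 in part 1 and 1342 to 1685 in part 2, with Foxc1, Foxc2, Aldh1a2 and Sim1 called higher of 16 tested. That of the secreted matrix genes was 9972 to 10890 and 13230 to 14180, with Fn1, Sparcl1, Fbn2 and Smoc1 called higher of 40. The sums of the PSM genes overlapped, at 10290 to 14310 and 11750 to 13230, but Cdx2, Wnt3a and Cyp26a1 were called lower of 20. Cdh6 was called lower of 11 neural crest genes tested, and Irf1 of 15 interferon response genes. The log2 ratio of 3′ to 5′ actin signal was 2.63, 3.76 and 2.35 in part 1 and 4.39, 3.74 and 3.01 in part 2. The part of these in the members' differences was not tested.

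At the other end, part 7 against part 6 gave 0 called members and 0 called genes of all tested by limma (background 0% each way). The smallest adjusted p was 0.691, that of Tagln2, whose difference was 1.23 ± 0.30 (SE). At an unadjusted p under 0.05, 7 members were higher in part 7 (background 2.74%) and 0 lower, where the background was 2.04%. The mean of part 7 was above that of part 6 in 21 of 27 members, against 54.6% of all genes, with a median difference of 0.35. All 3 arrays of part 7 lay above all 3 of part 6 in Pltp, Tagln2 and Bex4 (background 4.15%). The largest difference the other way was Jag1 (-0.64 ± 0.33, SE). By replicate number 1, 2 and 3, 20, 16 and 22 members were higher in part 7, against 50.8%, 50.6% and 56.3% of all genes. In number 2 the median difference of the members was 0.01. Without replicate 2 of part 7, 62 genes were called, 23 higher (0.189%) and 39 lower (0.321%), and still 0 members. The part 7 mean was then above that of part 6 in 22 members (all genes 56.2%), with a median difference of 0.56 (all genes 0.03). Both remaining arrays of part 7 lay above all 3 of part 6 in 16 members (all genes 14%). Then 15 members were higher at an unadjusted p under 0.05 (all genes 5.23%), led by Dst at 1.01 ± 0.24 (adjusted p = 0.0864) and Shisa2 at 1.30 ± 0.32 (adjusted p = 0.0996) (SE, limma). Jag1, the 1 member lower at an unadjusted p under 0.05 (all genes 3.31%), then stood at -1.02 ± 0.32 (SE, limma adjusted p = 0.234).

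Both differences together, part 2 below part 1 and part 7 above part 6, occurred in 19 of 27 members (70.4%), against 26.3% of all genes tested, and without replicate 2 of part 7 in 20 (74.1%, against 26.8%). In these members each outermost part was higher than its neighbour in its mean. Parts 2 and 6 adjoin the middle by whose low mean the genes were chosen. The counts inside both ends, those of part 7 against part 6 included, are thus not free of the choice. All genes are no neutral baseline for them. The median SD of the members between arrays was 0.45 in part 7 and 0.31 in part 6, against 0.22 and 0.21 over all genes. The value of part 7 rested on replicate 2: without it the median was 0.14 (all genes 0.18).

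Within the middle, 0 of the 27 members passed limma's F test among parts 3, 4 and 5 at an adjusted p under 0.05 (background 1.7%). At an unadjusted p under 0.05, 3 did, which is near the background of 9.97%: Nav1 (adjusted p = 0.315), Klf9 (0.434) and Myc (0.468). In Nav1 part 4 had the lowest mean: the log2 difference was -0.55 ± 0.19 for part 4 minus part 3 and 0.44 ± 0.19 for part 5 minus part 4 (SE). The largest steps were in Klf9 (part 4 minus part 3, -0.82 ± 0.30, SE), Myc (part 5 minus part 4, 0.86 ± 0.31, SE), Shisa2 (part 4 minus part 3, -0.79 ± 0.33, SE) and Pax9 (-0.76 ± 0.39, SE).

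Replicate numbers differed in 8 of 27 members by limma's F test beside the parts (background 33.2%), a share near that of all genes. Stc2 had the largest difference: replicate 3 exceeded replicate 1 by 1.00 on average (adjusted p = 0.000882). The others, again as replicate 3 minus replicate 1, were Mtss1 (0.42, adjusted p = 0.00556), Pkp2 (0.54, 0.0110), Siah2 (0.44, 0.0118), Shb (-0.34, 0.0154), Mfsd2a (-0.35, 0.0248), Slain1 (0.33, 0.0412) and Atp1b2 (-0.51, 0.0449). Without replicate 3, 0 members and 4 genes of all were called. Over all parts the members were noisier than most genes, with a median SD within parts of 0.39, against 0.24 for all genes tested, and a median level of 6.25, against 6.82. Deviations of the members from their part means were weakly alike. The mean of r over all pairs of members was 0.16 over the 21 arrays, against 0.01 over pairs of all genes. With replicate number means removed too, it was 0.21, and the pairs most alike were Ccnd1 and Nav1 (0.77), Ccnd1 and Pltp (0.76) and Lpin1 and Nup210 (0.76). Every pair of members is read over the same arrays, and these values are a description.

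Other probe sets of the same genes gave a further reading. Of the 27 members 5 have 1 probe set; the other 22 have 48 more, of which 28 passed the low-signal filter. The middle was below both ends in 24 of these 28 (over all genes tested, in 3377 of 12141). By at least 0.5 it was so in 6: both further probe sets of Ccnd1 (0.54 and 0.92) and 1 each of Cxxc5 (0.59), Nav1 (0.60), Shisa2 (0.51) and Siah2 (0.55). Several others had smaller dips near 0, among them Jag1 (0.026 and 0.030), E2f2 (0.032) and Mtss1 (0.043 and 0.024). All were read on the same arrays that chose the genes. The 4 that went the other way had smaller dips of -0.09 and -0.01 (Mtss1), -0.15 (Atp1b2) and -0.14 (Bcl11a). The other probe sets of Pax9, Slain1, Wnt9a and Nup210 did not pass the filter, so each of these profiles rests on 1 probe set. The second probe set of Scd1 had differences of 0.29 and 0.82 to parts 1 and 2 and to parts 6 and 7.

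Of 20 gene lists of cell types and processes, 5 held members: lipid and sterol metabolism (Scd1, Pltp), notochord and node (Pltp), somite (Pax9), stress and immediate early genes (Myc) and contractile genes (Tagln2). Summed signals of the list of 18 surface ectoderm genes were 152 to 225 in parts 1 and 2, 134 to 202 in parts 3 to 5 and 176 to 239 in parts 6 and 7; Perp and Bmp7, of 9 tested, were lower in the middle. Those of the 30 stress genes were 1773 to 1979, 1287 to 1799 and 1569 to 2052. Among 27 tested, Ier2, Gadd45b and Myc were lower in the middle and Fosl2 and Gadd45g higher. Endothelial sums had no dip, with 3681 to 8128, 1714 to 7023 and 1176 to 3290, nor had blood sums, with 11530 to 23820, 7806 to 18640 and 6914 to 13190. Their part in the members' profile was not tested.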

How the data were processed

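Deposited values hold 1 intensity per probe set on a linear scale. The authors computed and scaled them with MAS5, as named in the submitters' processing notes, with version and settings not given in the sources used here. RNA was amplified in 2 rounds per the labels' protocols, which can distort levels. Scaling hides a change shared by most genes, and MAS5 is noisy at low signal. All 21 arrays were grouped by their titles; no pair was identical.

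Of 45101 probe sets, 64 were controls, 9160 had no symbol, 932 had several, and 34945 had 1, of which 34741 matched RefSeq (GRCm38.p6). The highest-mean probe set stood for each of 18193 genes. Tests used 12141 genes at or above 13.3, the median of all values, in at least 3 arrays.

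Limma 3.58.1 (R 4.3.3) was fitted on log2(value + 16) over all parts with a variance trend and 14 residual degrees of freedom (12 with replicate number), with Benjamini-Hochberg adjustment over all genes at 0.05. The fit was tested on simulated data. Members and lists were chosen with earlier results of these data known. The rule for named genes took the 20 largest smaller dips, called members, list members, genes at the limit and tissue markers. The text names all 27 members and some other list genes, most of them called and a few that mark a tissue. The number of arrays limits precision. Alternatives were other pseudocounts, filters, normalizations and probe set summaries, no variance trend, a replicate block and arrays left out.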

Additional observations from a re-analysis of the deposited data

How the results depend on the processing

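The number of genes meeting the rule depended most on the pseudocount. It was 294 with a pseudocount of 1 (all 27 members among them) and 7 with 64 (Scd1, Mfsd2a, Dst, Ccnd1, Cxxc5, Klf9 and Jag1), 12 with probe sets of a gene averaged, all members, and 0 with a threshold of 1. Leaving out each replicate number gave 28 to 43 genes, of which 17 to 22 were members; without replicate 2 of part 7, added after seeing the data, it gave 27, of which 25 were members, and the counts of calls became 110, 223 and 4015 genes for part 2 against part 1, parts 3 to 5 and replicate numbers, and 23 members and 426 genes for the middle against the ends. Scd1, Mfsd2a, Ccnd1 and Cxxc5 met the rule in all 9 alternatives tried on single members. Of 243 smaller dips under alternatives, 224 moved by less than the SD within parts, 19 by more, and 0 changed sign. Called members for part 2 against part 1 numbered 1 with the mean of probe sets, where Nup210 had an adjusted p of 0.0826, and 0 to 1 without a replicate number (Nup210 0.0725 to 0.368); over all genes 97 calls became 55 with a pseudocount of 1, 61 with a filter at the 75th percentile and 14 to 61 without a replicate number. Part 7 against part 6 gave 62 calls without its replicate 2 and 0 to 14 without a replicate number. For parts 3 to 5, 206 calls became 32 to 146. For replicate numbers, 8 called members became 4 with the 75th percentile filter and 0 to 8 without a replicate number, and 4035 genes 4 to 3810. For the middle against the ends, 22 members became 14 with that filter and 7 to 15 without a replicate number, and 352 genes 112 to 232. The causes were not tested.

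Same-numbered arrays had correlated deviations (mean r 0.33 over 63 pairs, from 0.03 to 0.68), against a mean r of -0.16 over 126 pairs of different numbers. All same-numbered pairs had r above 0, but the lowest was near it, and the labels do not tie numbers to embryos. The main fit therefore left the replicate number out. With the replicate number as a block, called members for part 2 against part 1 rose to 6 (Mfsd2a, Slain1, Nup210, Atp1b2, Bex4 and Siah2) and all genes to 486; part 7 against part 6 kept 0 of both. Over all genes the counts were 505 for parts 3 to 5, with 0 members, and 715 for the middle against the ends. Quantile normalization, median centring and no variance trend changed no call count of members by over 1.5 times.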
